A study of Mus musculus with 16 samples.

Results

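The 38 genes described here sense viral nucleic acid, carry the interferon signal to the nucleus or act as its antiviral effectors, and were chosen by name from the mouse interferon response, leaving out the OAS, interferon GTPase and MHC families. They comprise 5 sensors, 4 STAT and IRF transcription factors and 29 effectors, and were listed with earlier results of these data known. An annotated probe existed for 36 of the 38, and 33 were detected well enough to be measured, out of 10724 genes tested. Each was read from its brightest detected probe.

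Messenger RNA was profiled on 16 Illumina mouse BeadChip arrays, 4 for each of 4 mouse mammary tumour cell lines. MI6 and MI7 come from tumours with a transgene for d16HER2, the HER2 receptor spliced without exon 16, while WTHER2-1 and WTHER2-2 come from tumours with a transgene for the full-length (WT) receptor. All 4 lines carry a HER2 transgene, so no line without one serves as a control, and the labels name no treatment. The promoter of the transgenes, the mouse strain and age and the passage of the cells are not given in the sources used here. Replicate numbers only name a line's arrays and were assigned here, in accession order. Each transgene is represented by 2 lines, and the labels do not say whether a line's arrays hold RNA of separate cultures, so the spread between arrays may be technical. The 8 d16HER2 arrays lay on BeadChips 1 and 2, the WTHER2-2 arrays on BeadChips 3 and 4, and the WTHER2-1 arrays on BeadChips 5 and 6. No BeadChip held both transgenes, so BeadChip and transgene cannot be told apart.

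In the interferon response, cytosolic receptors such as RIG-I and MDA5 bind foreign or misplaced RNA and cause the cell to make type I interferon. Interferon binds its receptor on the same or neighbouring cells, and the JAK kinases then activate STAT2, which with IRF9 acts at promoters that carry an interferon-stimulated response element. The genes so induced include the sensors and factors of the pathway itself, among them Irf7, and a large group of effectors. In tumours, such genes can be active in the cancer cells without infection.

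Each value is the log2 of a probe's intensity after background correction and quantile normalization, so a step of 1 is a doubling, and levels are compared only within a gene. The arrays detected 35.8% to 42.4% of 45281 probes, with raw median intensities of 83.5 to 148.7. Across genes, 2 arrays of a line correlated at 0.958 or more in MI6, MI7 and WTHER2-1, and at 0.852 to 0.991 in WTHER2-2. Of 8 leukocyte markers with a probe, Ptprc, Adgre1, Itgam, Tyrobp, Lyz2 and Cd3e were detected on no array of any line, and Csf1r and Cd14 on all arrays. The mean level of the 10 epithelial markers was 11.49 to 11.62 in MI6 and 11.60 to 11.78 in MI7, against 10.61 to 11.13 in WTHER2-1, 11.28 and 11.39 on the WTHER2-2 arrays of BeadChip 3, and 8.36 and 6.49 on those of BeadChip 4. The mean level of the 9 fibroblast markers was at most 5.17 in the d16HER2 lines, against 5.34 to 5.88 in WTHER2-1 and 7.24 to 9.91 in WTHER2-2. Whether these marker levels bear on the interferon genes was not tested.

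The interferon genes were lower in the d16HER2 lines than in the WT HER2 lines. Of the 33 measured, 32 had the lower mean in d16HER2 (97.0%, where 47.7% of all genes tested had), and the exception was Isg20. Ifih1, Rtp4 and Sp100 were detected on 1, 3 and 0 d16HER2 arrays and reached the 4 arrays needed only through the WT HER2 lines. Their lower d16HER2 means add no support, though they stay in the counts and medians here. Without the WTHER2-2 arrays of BeadChip 3 the count was 28. The median difference, d16HER2 minus WT HER2, was -1.53 on the log2 scale over the 33 genes and 0.03 over all genes, with a range of -4.20 to 0.24. In bulk RNA of this kind, fewer cells of a type and less RNA per cell cannot be told apart.

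Genes are termed separated here if each d16HER2 line differed from each WT HER2 line in the same direction, by at least 1 on the log2 scale and with an adjusted p under 0.05 in limma. By this measure 10 of the 33 (30.3%) were separated and lower in d16HER2, against 2.46% of all genes, and none of the 33 was separated and higher, against 3.06% of all genes. The 10 were Isg15, Usp18, Parp14, Bst2, Rtp4, Lgals3bp, Tor3a, Ifi35, Apol9a and Apol9b, all of them effectors. Of these, Rtp4 could be measured only through the WT HER2 arrays, so its separation adds no support. A stricter test used the 4 line means, 2 against 2, and 3 genes passed it, Isg15, Usp18 and Apol9b, where 0.168% of all genes passed it in that direction. At an unadjusted p under 0.05 the line-level test took 21 of the 33 (63.6%), against 19.6% of all genes. The line-level calls vary with the arrays used, among the 33 and over all genes, where 53 passed with all arrays. None of the 33 passed without WTHER2-2 replicate 1 or without replicate 2, when 18 each time had an unadjusted p under 0.05. In both settings 0 of all genes passed. Without WTHER2-2 replicate 4, 6 of the 33 passed, and 99 of all genes. Of the 33, only Apol9b passed without MI6 replicate 2 or without MI6 replicate 3 (42 of all genes each time). Only Isg15 passed without MI6 replicate 4 (53 of all genes), and only Apol9a and Apol9b without WTHER2-1 replicate 2 (39 of all genes).

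The single pairs of lines were also counted. MI6 was lower than WTHER2-1 in 16 genes (7.13% of all genes were lower in this pair) and lower than WTHER2-2 in 18 (9.22%). MI7 was lower than WTHER2-1 in 14 genes (6.92%) and lower than WTHER2-2 in 20 (9.48%). In no pair was any of the 33 called higher. Pairs share lines and are not independent. Of the 33 genes, 10 were called lower in all 4 pairs, 4 in 3, 7 in 2, 2 in 1 and 10 in none. Over all 10724 genes, 264 were called lower in all 4 pairs, 137 in 3, 793 in 2, 460 in 1 and 9070 in none.

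**Figure D1:**
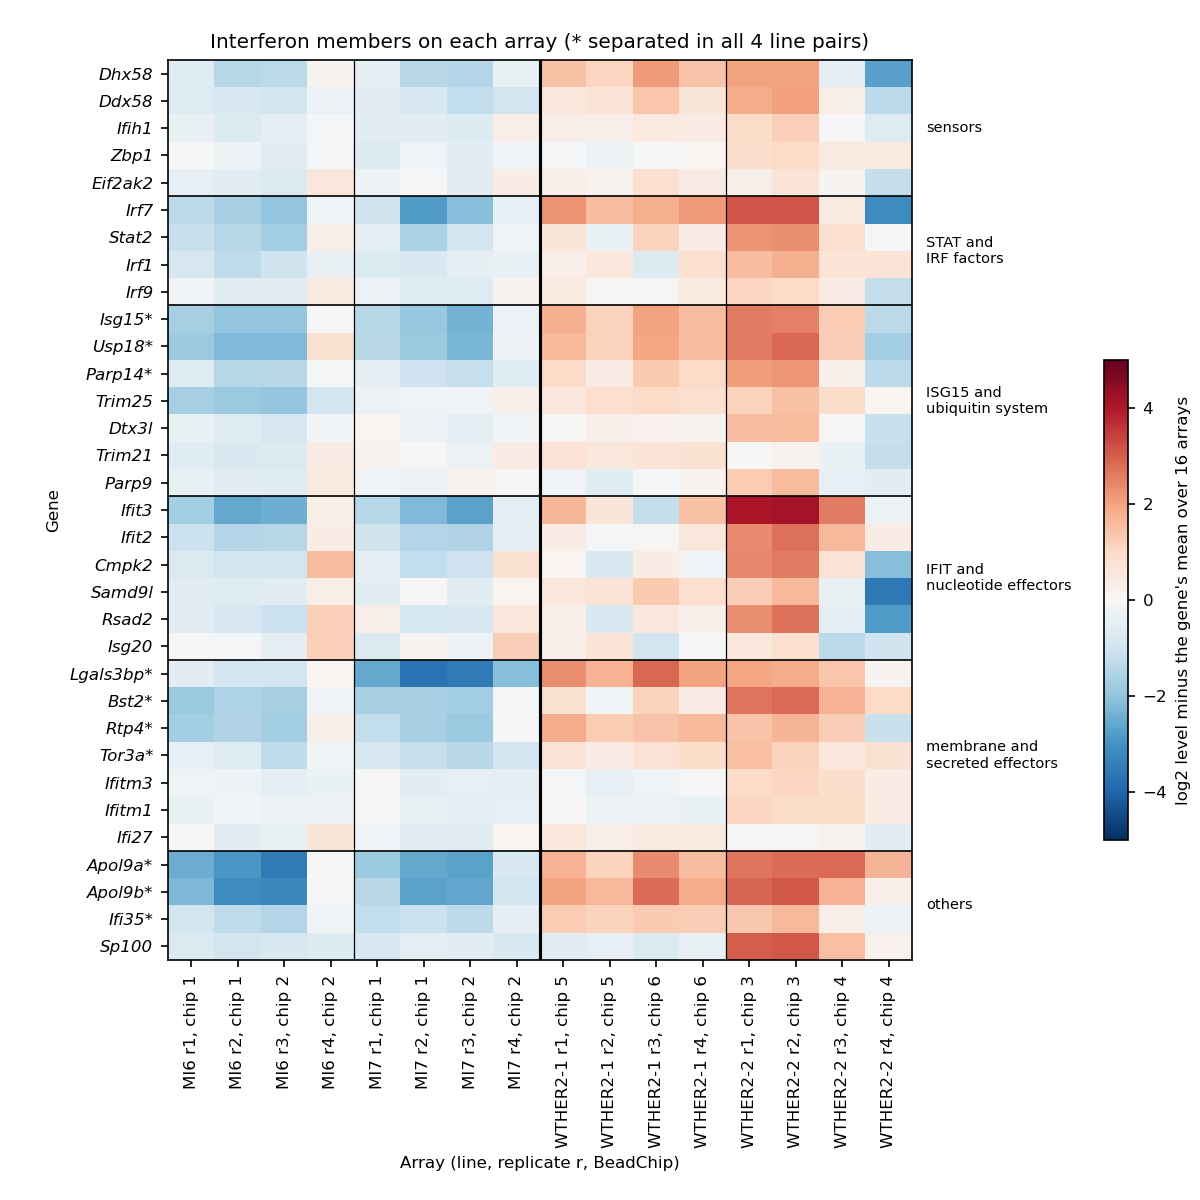
Level of each of the 33 measured genes (rows, by role) on each of the 16 arrays (columns, by line, replicate and BeadChip), as log2 level minus the gene's own mean over all arrays, so blue is low and red is high. The 8 d16HER2 arrays at the left are mostly blue and the WT HER2 arrays mostly red, except WTHER2-2 replicate 4 at the right edge, where the median over the genes was 8.77.

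**Figure D2:**
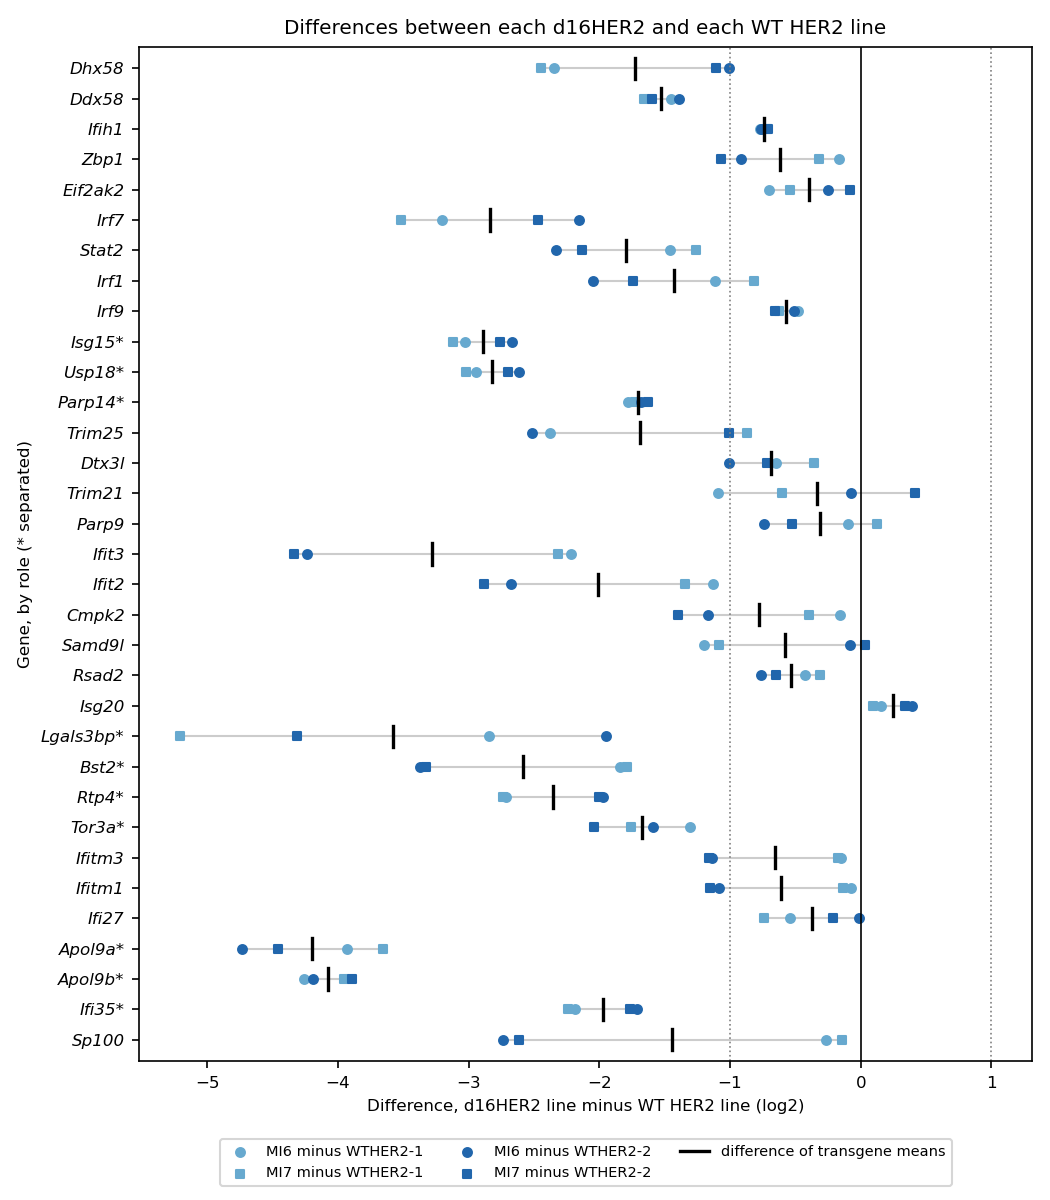
Difference of each d16HER2 line from each WT HER2 line on the log2 scale (circles MI6, squares MI7, colours the WT HER2 line), with the difference of the transgene means as a black tick, for the 33 genes by role. Asterisks mark the 10 separated genes, in which all 4 points lie left of the dotted line at -1, and Isg20 is the gene with all 4 points right of 0.

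The sensors were lower in d16HER2 in the mean, and none of the 5 was separated. Their median difference was -0.74. Ddx58, which encodes RIG-I, a helicase that detects viral RNA ends, and Dhx58, which encodes the related helicase LGP2, had the largest differences. Dhx58 measured 8.55, 7.75, 7.80 and 9.28 in MI6 and 8.73, 7.77, 7.71 and 8.77 in MI7, against 10.64, 10.24, 11.30 and 10.60 in WTHER2-1 and 11.16, 11.15, 8.67 and 6.43 in WTHER2-2. Every WTHER2-1 array lay above all d16HER2 arrays, whereas in WTHER2-2 replicates 1 and 2 were high, replicate 3 lay within the d16HER2 range and replicate 4 lay below it. The difference in Dhx58 was -1.73 ± 0.51 (limma SE, adjusted p = 0.199 at the line level), and both d16HER2 lines were called lower than WTHER2-1 but not than WTHER2-2. Ddx58 averaged 8.80 ± 0.26 for MI6 and 8.59 ± 0.27 for MI7, versus 10.25 ± 0.41 for WTHER2-1 and 10.19 ± 1.57 for WTHER2-2 (SD, n = 4 arrays a line). It was called lower in 3 of the 4 pairs, with an adjusted p of 0.0507 in the remaining one, and its difference was -1.53 ± 0.21 (adjusted p = 0.0837 at the line level). Without WTHER2-2 replicate 4 both helicases were separated, with differences of -1.87 in Ddx58 and -2.22 in Dhx58.

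The other sensors differed less. Ifih1, which encodes MDA5, a receptor for long double-stranded RNA, was detected on 1 of 8 d16HER2 arrays against 6 of 8 WT HER2 arrays, and its difference was -0.74 ± 0.17. Eif2ak2, which encodes PKR, a kinase that halts translation when it binds double-stranded RNA, differed by -0.40 ± 0.23. Zbp1, a receptor for left-handed nucleic acid that can set off cell death, differed by -0.62 ± 0.35 on its brightest probe and was called lower only between MI7 and WTHER2-2. A dimmer probe of Zbp1 gave means of 5.23 for MI6 and 5.34 for MI7, versus 8.47 for WTHER2-1 and 8.11 for WTHER2-2. This probe was detected on 2 of 8 d16HER2 arrays and on 7 of 8 WT HER2 arrays, so its d16HER2 means are near background. The 2 probes of Zbp1 agree in direction and disagree in size, so its value depends on the probe.

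All 4 transcription factors were lower in d16HER2 in the mean, with a median difference of -1.61, and none was separated. Irf7, the factor that amplifies the production of type I interferon and is itself induced by it, had the largest difference. It measured 7.19, 6.89, 6.53 and 8.38 in MI6 and 7.50, 5.71, 6.39 and 8.10 in MI7, against 10.77, 10.05, 10.34 and 10.65 in WTHER2-1 and 11.67, 11.64, 8.95 and 5.35 in WTHER2-2. The WTHER2-1 arrays and replicates 1 to 3 of WTHER2-2 lay above every d16HER2 array, but WTHER2-2 replicate 4 was the lowest of all 16. The difference in Irf7 was -2.84 ± 0.44 (adjusted p = 0.0904 at the line level), called lower against WTHER2-1 for both d16HER2 lines and of the 16 arrays, leaving out WTHER2-2 replicate 4 alone made it separated, at -3.51.

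Stat2, the STAT that joins IRF9 in the complex that binds interferon response elements, averaged 6.44 ± 0.89 for MI6 and 6.64 ± 0.59 for MI7, versus 7.90 ± 0.61 for WTHER2-1 and 8.78 ± 1.15 for WTHER2-2. Its difference was -1.80 ± 0.39 (adjusted p = 0.137), called lower in 2 pairs, both against WTHER2-2, and separated without WTHER2-2 replicate 4, at -2.03. Irf1, a factor induced by interferon gamma that binds the same kind of element, averaged 11.21 ± 0.38 for MI6 and 11.52 ± 0.18 for MI7, versus 12.33 ± 0.64 for WTHER2-1 and 13.26 ± 0.57 for WTHER2-2, a difference of -1.43 ± 0.37 called lower in 3 pairs. Leaving out WTHER2-1 replicate 3 made Irf1 separated, at -1.58. Irf9, the DNA-binding partner in the STAT complex, differed by -0.57 ± 0.18 and was called in no pair.

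Among the 29 effectors, 24 were measured, 23 had the lower mean in d16HER2 and 10 were separated, with a median difference of -1.68. The ISG15 and ubiquitin genes held 3 of the 10. ISG15 is a ubiquitin-like protein that is joined to other proteins during the interferon response, and USP18 is the protease that removes it and also damps signalling at the interferon receptor. Isg15 measured 8.47, 8.14, 8.13 and 10.13 in MI6 and 8.70, 8.24, 7.75 and 9.81 in MI7, against 11.91, 11.29, 12.13 and 11.66 in WTHER2-1 and 12.73, 12.65, 11.39 and 8.77 in WTHER2-2. All d16HER2 arrays lay below all WTHER2-1 arrays, and WTHER2-2 replicate 4 fell inside the d16HER2 range. Isg15 was 7.43-fold lower in d16HER2, a difference of -2.89 ± 0.22 (adjusted p = 0.0431 at the line level, and at most 0.00904 over the 4 pairs).

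Usp18 measured 9.54, 9.16, 9.17 and 12.14 in MI6 and 9.99, 9.51, 9.09 and 11.11 in MI7, against 13.00, 12.54, 13.33 and 12.92 in WTHER2-1 and 13.97, 14.23, 12.59 and 9.69 in WTHER2-2. Replicate 4 was the highest array of each d16HER2 line, and WTHER2-2 replicate 4 was again the low WT HER2 array, so the groups overlapped. Usp18 was 7.06-fold lower, a difference of -2.82 ± 0.19 (adjusted p = 0.0399 at the line level, and at most 0.0244 over the pairs). Its separation was lost without MI6 replicate 1, 2 or 3, MI7 replicate 2 or 3, or WTHER2-2 replicate 1 or 2, when the difference was -2.75 to -2.55, and with BeadChip as a random block. Parp14, an ADP-ribosyltransferase induced by interferon, measured 9.28, 8.50, 8.54 and 9.89 in MI6 and 9.45, 8.89, 8.77 and 9.32 in MI7, against 10.88, 10.30, 11.25 and 10.91 in WTHER2-1 and 12.01, 12.12, 10.19 and 8.62 in WTHER2-2. The d16HER2 arrays were below WTHER2-1 and below replicates 1 to 3 of WTHER2-2, while WTHER2-2 replicate 4 lay among them. Parp14 differed by -1.70 ± 0.19 (adjusted p = 0.0627 at the line level), and its call is close to the threshold, with a largest pair adjusted p of 0.0406. The separation of Parp14 was lost when any 1 of 12 arrays was left out, with differences of -1.76 to -1.47. These were MI6 replicates 1, 2 and 3, all 4 of MI7, WTHER2-1 replicates 1, 3 and 4, and WTHER2-2 replicates 1 and 2.

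The other ubiquitin genes were not separated. Trim25, the ubiquitin ligase that helps switch on RIG-I, averaged 8.55 ± 0.44 for MI6 and 10.06 ± 0.25 for MI7, versus 10.93 ± 0.17 for WTHER2-1 and 11.06 ± 0.59 for WTHER2-2, and was called lower in 3 pairs but not between MI7 and WTHER2-1. Dtx3l and Parp9, partners in an enzyme pair that modifies chromatin and viral proteins, differed by -0.68 ± 0.22 and -0.31 ± 0.29. Trim21, an antibody receptor in the cytosol with ubiquitin ligase activity, differed by -0.34 ± 0.44 and was called lower only between MI6 and WTHER2-1. Herc6 had no annotated probe, and Parp12 was detected on 3 arrays, all of WT HER2 lines, too few to be measured.

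None of the 6 measured IFIT and nucleotide effectors was separated, and their median difference of -0.68 covered both the largest difference outside the separated genes, in Ifit3, and that of Isg20, which ran the other way. Ifit3, which with its relatives binds viral RNA and blocks its translation, measured 8.38, 7.51, 7.64 and 10.42 in MI6 and 8.65, 7.88, 7.41 and 9.62 in MI7, against 11.75, 10.68, 8.87 and 11.54 in WTHER2-1 and 14.16, 14.25, 12.68 and 9.80 in WTHER2-2. It was highest on WTHER2-2 replicates 1 and 2, at a level that no d16HER2 array approached, while WTHER2-1 replicate 3 and WTHER2-2 replicate 4 lay inside the d16HER2 range. Its difference was -3.28 ± 0.73 (adjusted p = 0.142 at the line level), called lower in both pairs with WTHER2-2, and it was separated without WTHER2-1 replicate 3 or without WTHER2-2 replicate 4, at -3.58 and -3.76. Ifit2, of the same family, averaged 7.83 ± 0.85 for MI6 and 7.61 ± 0.48 for MI7, versus 8.96 ± 0.27 for WTHER2-1 and 10.50 ± 1.05 for WTHER2-2, and its difference of -2.01 ± 0.59 was called in 3 pairs. Ifit2 was separated without MI6 replicate 4 or without WTHER2-2 replicate 4, at -2.22 and -2.24. Ifit1 was detected on no array.

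Rsad2, which encodes viperin, an enzyme that makes a chain-terminating nucleotide, differed by -0.54 ± 0.23, and Cmpk2, the mitochondrial nucleotide kinase encoded beside it, by -0.78 ± 0.43. Samd9l, a restriction factor of poxviruses, differed by -0.58 ± 0.42, and became separated at -1.13 without WTHER2-2 replicate 4. Isg20, an exonuclease that degrades RNA, had the higher mean in d16HER2, with 8.63 ± 0.71 for MI6 and 8.57 ± 0.84 for MI7, versus 8.48 ± 0.70 for WTHER2-1 and 8.24 ± 1.06 for WTHER2-2. Its difference was 0.24 ± 0.24 (adjusted p = 0.636), within the spread of the arrays, and none of these 4 genes was called in any pair.

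The membrane and secreted effectors held 4 of the 10 separated genes, with a median difference of -1.67. Bst2, which encodes tetherin, a protein that holds budding virus at the cell surface, measured 7.73, 8.03, 7.91 and 9.40 in MI6 and 7.98, 7.95, 7.83 and 9.51 in MI7, against 10.36, 9.39, 10.68 and 10.01 in WTHER2-1 and 12.25, 12.41, 11.33 and 10.57 in WTHER2-2. Its d16HER2 arrays lay below all WT HER2 arrays except for MI6 replicate 4 and MI7 replicate 4, which lay just above WTHER2-1 replicate 2. Bst2 was lower in d16HER2, with a difference of -2.58 ± 0.57 (adjusted p = 0.142 at the line level and at most 0.0109 over the pairs).

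Rtp4, a chaperone of cell-surface receptors, measured 5.13, 5.34, 5.15 and 7.10 in MI6 and 5.61, 5.19, 4.98 and 6.81 in MI7, against 8.70, 8.11, 8.28 and 8.47 in WTHER2-1 and 8.25, 8.54, 8.07 and 5.75 in WTHER2-2. It was detected on 3 of 8 d16HER2 arrays against 7 of 8 WT HER2 arrays, and both groups of arrays overlapped at MI6 replicate 4, MI7 replicate 4 and WTHER2-2 replicate 4. Rtp4 differed by -2.36 ± 0.34 (adjusted p = 0.0837 at the line level), and its separation was lost with BeadChip as a random block. Tor3a, an interferon-induced ATPase of the torsin family, measured 6.32, 6.10, 5.45 and 6.60 in MI6 and 5.93, 5.58, 5.35 and 5.81 in MI7, against 7.42, 7.16, 7.47 and 7.64 in WTHER2-1 and 8.23, 7.87, 7.25 and 7.48 in WTHER2-2. All 8 d16HER2 arrays of Tor3a lay below all 8 WT HER2 arrays, and the difference was -1.67 ± 0.28 (adjusted p = 0.0977 at the line level). Its separation was lost when the background was not corrected, when the normexp offset was 50, and in the table that the authors had normalized.

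Lgals3bp, a secreted glycoprotein that binds galectins, measured 10.47, 10.06, 10.07 and 11.12 in MI6 and 8.49, 7.35, 7.49 and 8.91 in MI7, against 13.36, 12.77, 13.92 and 13.03 in WTHER2-1 and 13.02, 12.88, 12.42 and 11.19 in WTHER2-2. Every d16HER2 array was below every WT HER2 array, although MI7 was well below MI6. Lgals3bp was lower in d16HER2, with a difference of -3.58 ± 0.90 (adjusted p = 0.166 at the line level, where the gap between MI6 and MI7 enters the error, and at most 0.00211 over the pairs). Ifitm1 and Ifitm3, membrane proteins that hinder virus entry, differed by -0.61 ± 0.37 and -0.66 ± 0.36, and both were called lower against WTHER2-2 but not against WTHER2-1. Ifi27, a mitochondrial protein of the interferon response, differed by -0.38 ± 0.23 and was called in no pair.

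Of the other effectors, 3 of 4 measured were separated, with a median difference of -3.03. Apol9a and Apol9b, apolipoprotein L genes on mouse chromosome 15, had the largest differences of the 33. Apol9a measured 6.96, 6.56, 5.91 and 9.44 in MI6 and 7.60, 6.90, 6.78 and 8.69 in MI7, against 11.21, 10.56, 11.83 and 11.00 in WTHER2-1 and 12.14, 12.24, 12.27 and 11.17 in WTHER2-2. No d16HER2 array reached the WT HER2 range, and replicate 4 was the highest in MI6 and in MI7. Apol9a was 18.3-fold lower in d16HER2, a difference of -4.20 ± 0.36 (adjusted p = 0.0516 at the line level and at most 0.000352 over the pairs). Apol9b measured 6.41, 5.52, 5.44 and 8.56 in MI6 and 7.30, 6.01, 6.09 and 7.75 in MI7, against 10.69, 10.29, 11.48 and 10.52 in WTHER2-1 and 11.57, 11.76, 10.42 and 8.96 in WTHER2-2. Its groups did not overlap either, and it was 16.9-fold lower, a difference of -4.08 ± 0.24 (adjusted p = 0.0399 at the line level). The paralogs resemble each other in sequence, and whether their probes also read each other's transcript was not tested.

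Ifi35, a leucine zipper protein induced by interferon, measured 8.59, 8.25, 8.03 and 9.32 in MI6 and 8.28, 8.45, 8.21 and 9.06 in MI7, against 10.79, 10.61, 10.82 and 10.73 in WTHER2-1 and 10.85, 11.12, 9.86 and 9.21 in WTHER2-2. The groups of arrays overlapped at 1 point, where MI6 replicate 4 lay just above WTHER2-2 replicate 4, and the difference was -1.98 ± 0.26 (adjusted p = 0.0778 at the line level). Sp100, a component of nuclear bodies, was detected on no d16HER2 array, on 3 of 4 WTHER2-1 arrays and on all 4 of WTHER2-2, and lay at least 2.25-fold below the WT HER2 mean in the d16HER2 lines, taking the lowest detected signal of each array as its upper limit there. It was called lower only against WTHER2-2. Ifi44 had no annotated probe, and Xaf1 was detected on no array. In all, 4 of the 33 genes (Lgals3bp, Tor3a, Apol9a and Apol9b, 12.1%) had every d16HER2 array below every WT HER2 array, against 4.73% of all genes. For 14 genes a further detected probe existed, and all 18 such probes also had the lower mean in d16HER2. A probe of Irf1 was detected on no d16HER2 array and on 7 WT HER2 arrays, and a probe of Ifitm1 on none and on 4. Probes of Ddx58, Zbp1, Trim25 and Parp14 were detected on 1, 2, 3 and 1 d16HER2 arrays, against 6, 7, 8 and 4 WT HER2 arrays. All these probes passed the detection filter only through the WT HER2 arrays, so their lower d16HER2 means add no support. The share of all further probes that were lower was not computed.

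**Figure D3:**
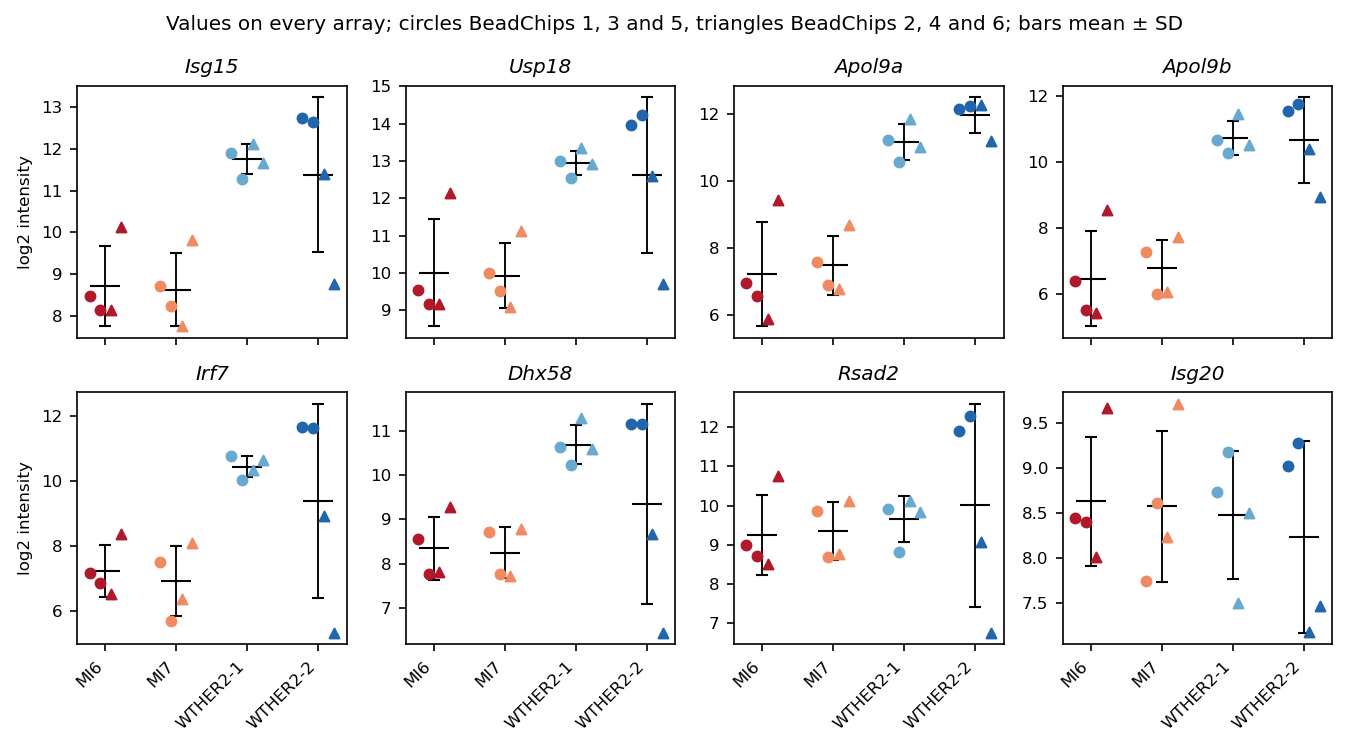
Log2 intensity on every array for 8 genes (circles, BeadChips 1, 3 and 5, triangles, BeadChips 2, 4 and 6), with the mean and SD of each line's 4 arrays as black bars. Apol9a and Apol9b show no overlap between the d16HER2 lines at the left of each panel and the WT HER2 lines at the right, Isg15, Usp18, Irf7 and Dhx58 overlap through the BeadChip 4 arrays of WTHER2-2, and in Rsad2 the WTHER2-2 arrays lie both above and below all d16HER2 arrays. In Isg20 the arrays of the transgenes overlap.

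The promoters of these genes are shown because some of the separated genes carry the letters that interferon-activated factors are known to bind. Windows from 250 bases before to 50 bases after the start, from RefSeq on GRCm38.p6, were found for 30 of the 38 genes. They were searched on both strands for GAAA, 2 bases of any kind and GAAA again, a core form of the interferon-stimulated response element (with TTTC in place of GAAA on the other strand), and for TTCNNNGAA, the form bound by STAT dimers. A match of the GAAA pair was present in 13 of the 30 genes (43.3%), against 3.99% of 27025 genes with a window, and TTCNNNGAA in 7 (23.3%), against 9.55%. The genes were chosen by name from the interferon response, with earlier results of these data known. This excess over all genes describes that choice and is no result of these arrays. Of the separated genes, Usp18, Parp14, Rtp4 and Tor3a had no window, and Lgals3bp and Ifi35 had a window without the GAAA pair. Among separated genes with a window, 4 of 6 had the GAAA pair, and among measured genes that were not separated, 8 of 19. The stretches below run 5′ to 3′ on the gene's strand around the matches in those 4 genes, with the matches to the GAAA pair or its reverse complement in capitals, which overlap each other in each stretch.
Apol9a, chr15:77411074-77411189 (-): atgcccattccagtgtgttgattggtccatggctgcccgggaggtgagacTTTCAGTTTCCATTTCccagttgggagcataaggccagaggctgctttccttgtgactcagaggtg
Apol9b, chr15:77728985-77729100 (+): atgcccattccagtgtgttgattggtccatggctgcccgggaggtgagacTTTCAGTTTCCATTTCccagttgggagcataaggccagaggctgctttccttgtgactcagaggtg
Isg15, chr4:156200825-156200946 (-): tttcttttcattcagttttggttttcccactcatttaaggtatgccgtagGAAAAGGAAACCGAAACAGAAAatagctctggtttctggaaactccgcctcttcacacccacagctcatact
Bst2, chr8:71537537-71537652 (-): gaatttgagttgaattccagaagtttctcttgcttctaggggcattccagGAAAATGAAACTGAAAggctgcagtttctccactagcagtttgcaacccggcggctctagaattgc
The Apol9a and Apol9b stretches were identical at 116 of 116 bases, with 2 overlapping matches each. The Bst2 stretch also held 2, and the Isg15 stretch held 3. A match describes the letters in the window and is not a measured binding site.

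Lines of the same transgene differed in Lgals3bp and Trim25 among the d16HER2 lines and in Trim21, Ifit2, Ifitm1, Bst2 and Sp100 among the WT HER2 lines. Between MI6 and MI7, 2 of the 33 were called (6.06%, against 1.18% of all genes), in opposite directions. Lgals3bp was higher in MI6 than in MI7 by 2.37 (adjusted p = 0.00689 in limma), by 2.34 on BeadChip 1 and 2.40 on BeadChip 2. Trim25 measured 8.48, 8.29, 8.23 and 9.19 in MI6 against 9.86, 9.97, 9.97 and 10.42 in MI7, without overlap, and was lower in MI6, a difference of -1.51 (adjusted p = 0.00596), which was -1.53 on BeadChip 1 and -1.49 on BeadChip 2. The median difference of MI6 from MI7 over the 33 genes was 0.03. With BeadChip as a fixed block the same 2 genes were called.

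Between WTHER2-1 and WTHER2-2, 5 of the 33 were called (15.2%, against 15.9% of all genes), a share near that of all genes. Trim21 was higher in WTHER2-1, with 10.41, 10.23, 10.33 and 10.42 there against 9.68, 9.83, 9.35 and 8.47 in WTHER2-2, a difference of 1.02 (adjusted p = 0.0144). Ifit2, with 9.08, 8.68, 8.79 and 9.28 in WTHER2-1 against 11.10, 11.47, 10.32 and 9.10 in WTHER2-2, was lower in WTHER2-1, at -1.54 (adjusted p = 0.0199). The lines overlapped in Ifit2 only at WTHER2-2 replicate 4, and not in Trim21, Sp100 or Ifitm1. Sp100, with 5.51, 5.67, 5.36 and 5.69 in WTHER2-1 against 9.09, 9.18, 7.59 and 6.28 in WTHER2-2, was lower in WTHER2-1 at -2.47 (adjusted p = 0.000744), and Bst2 at -1.53 (adjusted p = 0.0234). Ifitm1, with 14.80, 14.49, 14.44 and 14.41 in WTHER2-1 against 15.75, 15.65, 15.64 and 15.13 in WTHER2-2, was lower in WTHER2-1 at -1.01 (adjusted p = 4.32e-05). Each WT HER2 line had BeadChips of its own, so line and BeadChip cannot be told apart here, and with BeadChip as a random block only Ifitm1 and Sp100 were called. The count was 2 without WTHER2-2 replicate 2 (Trim21 and Sp100), 3 without WTHER2-2 replicate 1 and 8 without WTHER2-2 replicate 4. The share of all genes called without these arrays was not counted.

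Arrays of the same line also differed in these genes. In WTHER2-2, the arrays of BeadChip 4 (replicates 3 and 4) both lay below both arrays of BeadChip 3 (replicates 1 and 2) in 31 of the 33 genes, against 35.4% of all genes, and the exceptions were Ifi27 and Apol9a. The median difference, BeadChip 4 minus BeadChip 3, was -1.57 over the 33 genes and -0.01 over all genes, and 23 of the 33 were at least 2-fold lower, against 11.5% of all genes. It was -4.51 in Irf7, -4.18 in Rsad2, -3.61 in Dhx58 and -3.40 in Samd9l, against -0.39 in Ifitm3, -0.31 in Ifitm1 and -0.23 in Ifi27. Rsad2 itself measured 11.90, 12.29, 9.08 and 6.75 in WTHER2-2, spanning a wider range than all arrays of the other lines. The same BeadChip 4 arrays held the low epithelial and high fibroblast marker levels given above, and the part of these markers in the result was not tested.

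The d16HER2 lines were also set against each BeadChip of WTHER2-2, a split made after the values were seen. Against the BeadChip 4 arrays the d16HER2 mean was lower in 22 genes, where 48.9% of all genes were lower, and higher in 11, among them Samd9l, Rsad2 and Isg20, with a median difference of -0.95 (0.02 over all genes). Against the BeadChip 3 arrays the d16HER2 mean was lower in 33 of 33, where 45.6% of all genes were lower, with a median of -2.72 (0.06 over all genes). The number of separated genes was 17 without the BeadChip 4 arrays (2.86% of all genes were then separated and lower), when Ddx58, Dhx58, Stat2, Irf7, Ifit2, Ifit3 and Samd9l joined the 10. It was 7 without the BeadChip 3 arrays (2.76% of all genes), when Isg15, Usp18, Parp14, Rtp4 and Ifi35 were lost and Ifit2 and Ifit3 gained. Without WTHER2-2 replicate 4 alone it was 17 (2.73% of all genes). Bst2, Lgals3bp, Tor3a, Apol9a and Apol9b were separated both ways. In WTHER2-1 the BeadChips differed less, by a median of 0.21 for BeadChip 6 minus BeadChip 5, with a range of -1.01 to 0.65.

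The d16HER2 lines each had 1 array with higher interferon genes. Replicate 4 was the highest array of MI6 in 30 of the 33 genes, against 36.8% of all genes, and the highest of MI7 in 25, against 31.3%. Its median excess over the line's other arrays was 1.09 in MI6 and 0.71 in MI7, where that of all genes was 0.04 and 0.03. Replicate 3 of each line lay on the same BeadChip as replicate 4 and had the lowest median of its line. The median level over the 33 genes was 8.48, 8.25, 8.03 and 9.63 in MI6 and 8.65, 8.24, 7.83 and 9.32 in MI7, against 10.71, 10.29, 10.82 and 10.65 in WTHER2-1 and 11.67, 11.64, 10.32 and 8.77 in WTHER2-2. Thus the highest d16HER2 arrays lay above the lowest WTHER2-2 array and below all the others of the WT HER2 lines.

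**Figure D4:**
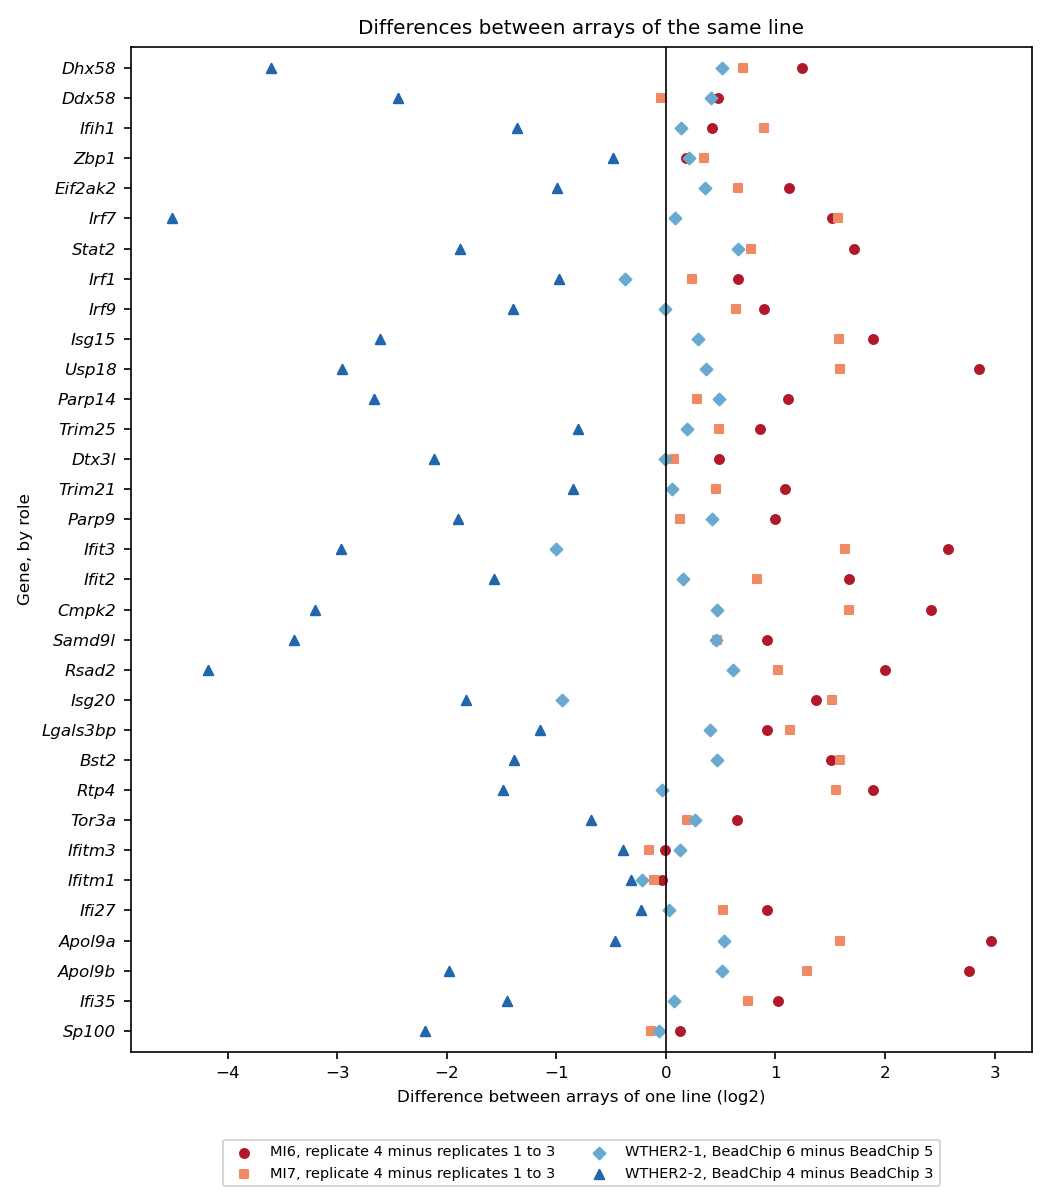
Difference between arrays of the same line on the log2 scale for each of the 33 genes, for replicate 4 minus the mean of replicates 1 to 3 in MI6 (circles) and MI7 (squares), BeadChip 6 minus 5 in WTHER2-1 (diamonds) and BeadChip 4 minus 3 in WTHER2-2 (triangles). The WTHER2-2 triangles all lie left of 0, down to -4.51 in Irf7, and most MI6 and MI7 points lie right of 0, with medians of 1.09 and 0.71.

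Of 67 other genes of the pathway, 47 were measured and 10 were separated, all lower in d16HER2 (21.3%, against 2.46% of all genes). These genes were listed with earlier results of these data known, so their share is no independent support. Ifnb1, Irf5, Cxcl10, Trim14, Trim30a and Rnf213 were measured only through the WT HER2 arrays. None of them was separated, and their lower d16HER2 means add no support. The interferons themselves were mostly undetected. Ifnb1, which encodes interferon beta, was detected on none of 8 d16HER2 arrays, on 3 of 4 WTHER2-1 arrays and on 2 of 4 WTHER2-2 arrays, and was at least 1.46-fold lower in d16HER2. Ifnb1 measured 4.63, 4.69, 4.65 and 4.75 in MI6 and 4.68, 5.08, 4.76 and 4.71 in MI7, against 6.12, 5.68, 5.49 and 6.44 in WTHER2-1 and 7.64, 8.42, 4.85 and 4.76 in WTHER2-2. The WTHER2-2 arrays of BeadChip 3 were high, and those of BeadChip 4 were at the d16HER2 level. Ifna1 differed by 0.03 ± 0.22, and Ifna2, Ifna4, Ifng, Ifnk and Ifnl3 were detected on no array.

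The receptor and kinase genes were not separated. Over 5 measured receptor chains the median difference was 0.33, with Ifngr1, the ligand-binding chain of the interferon gamma receptor, at 0.40 ± 0.24. Ifnlr1, the interferon lambda receptor, differed by 0.89 ± 0.68 and was called higher in 2 pairs, both against WTHER2-2. It measured 9.64, 9.60, 6.98 and 6.19 in WTHER2-2, so only the BeadChip 4 arrays were low. Its means were 9.88 for MI6 and 9.98 for MI7, versus 9.97 for WTHER2-1. Over Jak1, Jak2, Tyk2 and Stat3 the median was -0.21, with Jak2 at 0.53 ± 0.23 and Tyk2 at -0.42 ± 0.27. Ifnar1 was detected on no array. Of 4 other IRF genes none was separated, with Irf3, which switches on interferon genes, at 0.01 ± 0.22 and Irf2, a repressor, at -0.01 ± 0.17. Irf5 was detected on no d16HER2 array, on 2 of 4 WTHER2-1 arrays and on all 4 of WTHER2-2, and was at least 1.27-fold lower.

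Of 8 sensor adaptors and kinases 1 was separated. Cgas, the cytosolic DNA sensor, averaged 7.42 ± 0.49 for MI6 and 8.36 ± 0.34 for MI7, versus 10.15 ± 0.57 for WTHER2-1 and 10.13 ± 0.46 for WTHER2-2, a difference of -2.25 ± 0.39 (adjusted p = 0.103 at the line level), while Sting1, its partner, differed by 0.48 ± 0.23 and Tlr3, an endosomal RNA receptor, by 0.51 ± 0.48. Of 4 feedback inhibitors, Socs3, which blocks JAK kinases, was separated, at -2.58 ± 0.28. The phosphatase gene Ptpn2 ran the other way, at 1.17 ± 0.23, and was called in no pair.

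Of 20 other interferon-stimulated genes, 8 were separated. Ifi27l2a, a small interferon-induced protein, averaged 8.35 ± 1.02 for MI6 and 8.18 ± 0.92 for MI7, versus 13.99 ± 0.13 for WTHER2-1 and 12.57 ± 1.02 for WTHER2-2, a difference of -5.01 ± 0.53 (adjusted p = 0.0617 at the line level). Ccl5, a chemokine that draws T cells, averaged 6.12 ± 0.74 for MI6 and 6.01 ± 0.35 for MI7, versus 9.24 ± 0.62 for WTHER2-1 and 9.12 ± 1.23 for WTHER2-2, a difference of -3.11 ± 0.23 that passed the line-level test (adjusted p = 0.0399). The others were Phf11d at -3.57 ± 1.08, Ube2l6, the conjugating enzyme of ISG15, at -2.56 ± 0.63, Lgals9, a galectin, at -2.32 ± 0.36, Slfn2 at -2.10 ± 0.28, Tdrd7 at -1.42 ± 0.21 and Parp10 at -1.36 ± 0.28. Uba7, the enzyme that activates ISG15, differed by -0.09 ± 0.36, and Cxcl10, a chemokine induced by interferon, lay at least 2.13-fold below the WT HER2 mean, as all 8 d16HER2 arrays missed detection.

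**Figure D5:**
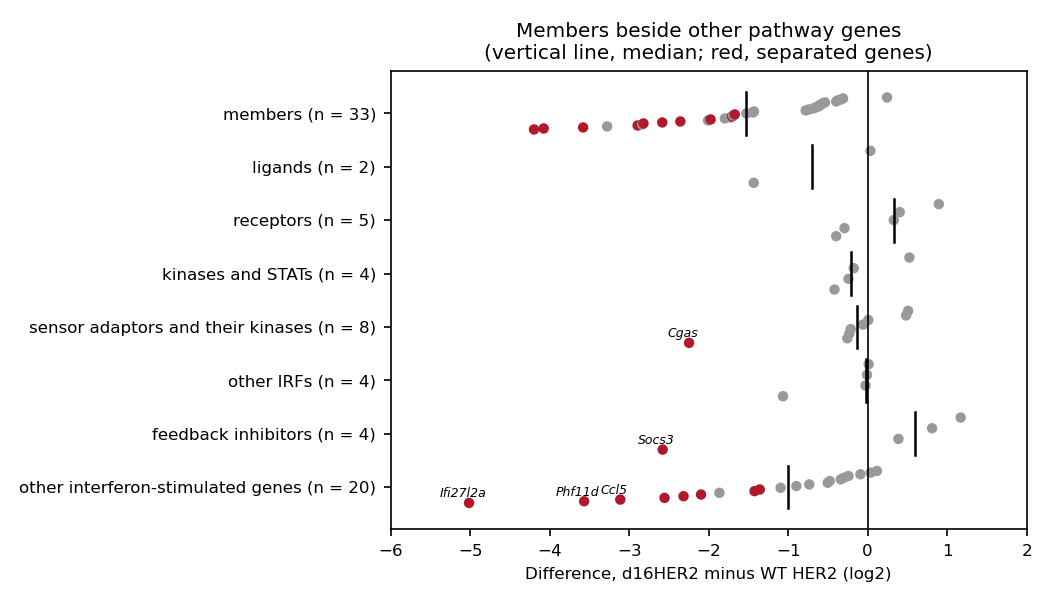
Difference, d16HER2 minus WT HER2, on the log2 scale for the 33 measured genes (top row) and for 47 other genes of the pathway by role, with separated genes in red and the median of each row as a vertical line. Receptors, kinases and other IRFs lie around 0 without a separated gene, whereas the top row (median -1.53) and the other interferon-stimulated genes (bottom row, 8 of 20 separated) are shifted to the left.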

How the data were processed

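RNA was prepared with Trizol and a DNase clean-up column and labelled with biotin as cRNA, per the labels' protocols. BeadChips were numbered here from the array positions in the labels, and the arrays of a line were numbered as replicates in accession order, which only names them. The authors deposited, per the file headers, an average signal intensity per probe without normalization and a detection p-value per probe. A second intensity table they deposited is quantile-normalized on a linear scale and served as an alternative. The submitters' processing notes name BeadStudio. Here intensities were corrected with limma's normexp (controls inferred from the detection p-values, offset 16), quantile-normalized and put on the log2 scale (R 4.3.3, limma 3.58.1, statmod 1.5.0). Probes with a detection p under 0.05 on at least 4 of 16 arrays entered (20152), and the brightest stood for its gene. Quantile normalization removes a shift shared by most genes, and the offset pulls dim differences towards 0.

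limma (lmFit, eBayes with trend) was fitted to all genes, over the 16 arrays by line and over the 4 line means, with Benjamini-Hochberg adjustment over 10724 genes. Precision is limited by the number of arrays and, between the transgenes, by the 2 lines that represent each. The SE given with a difference of transgene means comes from the 4 line means. It does not use the spread between a line's arrays directly. Alternatives covered background correction, normalization, detection filter, probe choice, array weights, BeadChip as a block, thresholds and left-out arrays and lines. Every member is named. Values on every array are given for separated genes and the gene of each role with the largest difference, and for members called between lines of 1 transgene. Members, lists and tests were chosen with earlier results of these data known. Symbols came from the platform annotation, in which 34885 probes had 1 symbol, 18 several and 10378 none. Protein sequences were not used here.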

Additional observations from a re-analysis of the deposited data

Results flagged for a closer look

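Of 132 combinations of a gene and a line, 11 had 1 array farther from the other 3 than Dixon's test allows at its 95% level, as did 1 of 28 combinations of a list median and a line. Chance flags about 1 in 20 such groups of 4.

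Replicate 4 of a d16HER2 line was the array that stood apart in 7 of them. In MI6 it was the high array for Usp18 (12.14, against 9.16 to 9.54 on the line's other arrays), Trim21 (10.07, against 8.92 to 9.08), Cmpk2 (9.63, against 7.12 to 7.36), Samd9l (12.06, against 11.11 to 11.18) and Rtp4 (7.10, against 5.13 to 5.34). In MI7 it was the high array for Ifih1 (5.83, against 4.83 to 4.99) and Bst2 (9.51, against 7.83 to 7.98).

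Replicate 4 of WTHER2-2 was the low array for Rtp4 (5.75, against 8.07 to 8.54) and Apol9a (11.17, against 12.14 to 12.27). Replicate 3 of WTHER2-1 was the high array for Ddx58 (10.86, against 10.00 to 10.09), and as Ddx58 was the middle sensor on these arrays, the median of the sensors had the same values. Replicate 1 of MI7 was the high array for Ifitm3 (14.87, against 14.33 to 14.42).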

How the results depend on the processing

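The median difference of the 33 genes was -1.73 to -1.33 when 1 array was left out, against -1.53 with all arrays, and it was farthest from that at -0.92 without the WTHER2-2 arrays of BeadChip 3 and at -1.98 with array weights. The number of separated genes, 10 with all arrays, was 8 to 17 when 1 array was left out. It was 17 without the WTHER2-2 arrays of BeadChip 4 and 18 with array weights (2.86% and 3.53% of all genes were then separated and lower). It was 16 without the line WTHER2-1 and 17 without the line WTHER2-2 (7.13% and 6.09% of all genes). With BeadChip as a random block it was 7 (1.99% of all genes). Bst2, Lgals3bp, Apol9a and Apol9b kept the call in all 33 alternatives tried. The number past the line-level test, 3 with all arrays, was 0 to 6 when 1 array was left out, 0 in limma without a detection filter, without the WTHER2-2 arrays of BeadChip 4 or of BeadChip 3 and without MI6 or MI7 (22, 22, 13, 13 and 14 at an unadjusted p under 0.05), 5 with array weights, 22 without WTHER2-1 and 17 without WTHER2-2. Over all 10724 genes the count was 53, and it was 2587 without WTHER2-1 and 1541 without WTHER2-2. Without a line, 1 of the transgenes has a single line mean, assumed to vary like the others. Over all genes the count was also 0 without a detection filter and without the WTHER2-2 arrays of BeadChip 4 or of BeadChip 3. The count between MI6 and MI7 stayed at 2. Between WTHER2-1 and WTHER2-2 it was 5, and 2 to 8 with 1 array left out. It was 2 with median scaling or BeadChip as a random block, and 15 with array weights. Without the WTHER2-2 arrays of BeadChip 4 and of BeadChip 3 it was 14 and 10. With a minimum difference of 1.5-fold or none it was 8. The share of all genes called between these lines in each setting was not counted, so these counts do not set the 33 genes apart. Of the other pathway genes 10 were separated, and 8 to 11 with 1 array left out. No called direction reversed. The sign of the difference changed between settings in 6 genes that were not separated with all arrays, over -1.88 to 0.51 in Rsad2, -1.43 to 0.27 in Samd9l, -0.84 to 0.17 in Trim21, -0.85 to 0.16 in Parp9, -1.89 to 0.02 in Cmpk2 and -0.46 to 0.70 in Isg20. Over 987 combinations of a gene and a setting, 905 stayed on the same side of the threshold, 35 lost the call and 47 gained it. Signal near background limits Ifih1, Parp9, Rtp4 and Sp100, which were detected on few or no d16HER2 arrays. The causes of these changes were not tested. No paired analysis was possible because the labels give the arrays no replicate numbers and no BeadChip held both transgenes. Only MI6 and MI7 shared BeadChips, and with BeadChip as a fixed block 2 genes were called between them.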
